A study of Sus scrofa with 226 samples.

Results

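Among the neurons of the pig dorsal root ganglion that were recorded with a patch pipette and then sequenced one by one, 51 are marked in the deposited cell table as spontaneously active, or 22.57% of all neurons. They were set against the remaining 77.43%, which are marked as silent. The comparison was repeated in the 160 neurons with OSMR under 50 CPM (counts scaled to library size), of which 43 were spontaneously active. OSMR is a receptor gene that marks one class of C-fibre neurons. Both groups were chosen by the mark alone, so the share of active neurons is given as a description with no test. The cell table states neither the criterion for the mark nor the units of its columns, and its values are therefore compared only with each other.

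Active and silent neurons came from the same 10 wild-type pigs, aged 11 to 20 weeks, with 1, 2 or 3 days in culture before the recording. Ganglia of the cervical, thoracic and lumbar levels were dissociated, so all neurons of both groups had been cut from their axons and cultured. The sequencing method, Smart-Seq2, reads whole transcripts of a single cell, carries no molecular identifiers and does not mark the strand. The animal is the replicate throughout, and each animal gave at least 2 neurons of each state.

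Sensory neurons of the dorsal root ganglion normally fire when their endings in skin, muscle or viscera are stimulated, and firing without a stimulus is studied as a source of ongoing pain. Whether a neuron fires depends on voltage-gated sodium channels, which carry the upstroke of the action potential, on potassium channels, which repolarise and stabilise the membrane, and on the size of the cell, since a larger membrane needs more current. The ganglion holds many neuron types, among them itch- and inflammation-related C-fibres with the receptors OSMR and IL31RA, peptidergic nociceptors and cold-sensing neurons with the channel TRPM8.

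Total counts per neuron ran from 109726 to 5506278, with a median of 740524.5. TAC1, the gene of substance P, reached 50 CPM in 98.04% of the active and 97.7% of the silent neurons, and the mean log2(CPM + 1) over a list of pan-neuronal genes had an animal average of 6.60 ± 0.337 in active and 6.63 ± 0.290 in silent neurons (SD, n = 10 animals). Total count, number of genes with a read and mitochondrial share of counts, at 4.48 ± 2.11% in active and 3.98 ± 1.28% in silent neurons, gave adjusted p-values of 0.858 to 0.996 in an exact two-sided test that flips the sign of each animal's difference. The 12 library measures tested, which include scores of neuron types, gave 0 adjusted p-values under 0.05 and 0 unadjusted ones with medians per animal. With means per animal 2 of these scores had smaller p-values. That of cold-sensing neuron markers was higher in active neurons of 9 of 10 animals (p = 0.0215, exact sign-flip test). That of OSMR C-fibre markers was lower in 8 of 10 (p = 0.0156), and the adjusted p was 0.129 for both. 0 neurons had identical counts.

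Spontaneously active neurons were found in every animal. Their share was 22.57% over all neurons and ran from 10% in animal 7, with 3 of 30 neurons, to 37.5% in animal 10, with 6 of 16 neurons. Animals 1 and 8 gave only 2 active neurons each. By day in culture, 22.58% were active after 1 day (28 neurons), 21.79% after 2 days (17 of 78) and 25% after 3 days (6 of 24). By age, the share was lowest at 17 weeks, with 5 of 34 neurons in 1 animal, and highest at 12 weeks, with 4 of 11 neurons in 1 animal. Of the neurons with OSMR at 50 CPM or more, 8 of 66 were active (12.12%), and of those under 50 CPM 43 of 160 (26.88%).

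**Figure D1:**
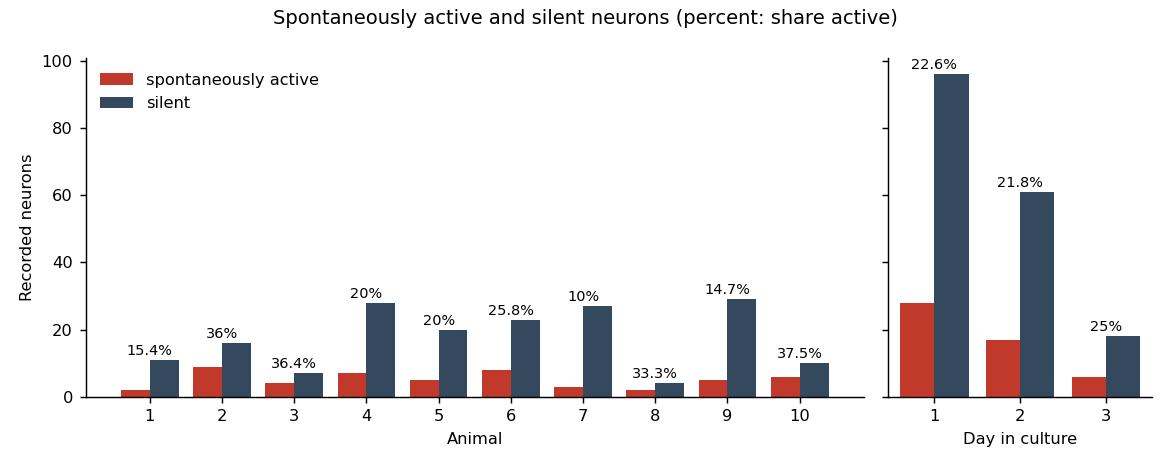
Number of spontaneously active (left bar) and silent (right bar) neurons by animal and by day in culture, with the share of active neurons above each pair. Every animal gave both states, and the share lay between 10% and 37.5%.

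The recordings differed between the states in cell size, in the current needed to evoke an action potential and in the values recorded for stimulation at several frequencies. The deposited table holds 411 recorded columns that were measured in at least 70% of neurons, with the mark of spontaneous activity left out. Most of them repeat one measure for each pulse of a train. With all 411 tested as planned, 28.7% had an unadjusted p under 0.05 in the exact two-sided sign-flip test and 0 columns (0.0%) passed after adjustment, where the smallest adjusted p was 0.0636. With 10 animals the smallest p that test can give is 0.00195, and 9 columns reached it. With each train entered only by its first and last pulse, a choice made after the data had been seen, 46 columns remained, of which 50% had an unadjusted p under 0.05, and 22 of them (47.8%) passed, 7 higher and 15 lower in active neurons. The adjusted p-values below are those over the 46 columns.

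Spontaneously active neurons were smaller. The column cslow, by its name the amplifier's reading of the slow membrane capacitance, which grows with membrane area, averaged 49.1 ± 8.63 in active and 81.5 ± 15.3 in silent neurons (SD, n = 10 animals). Animal means ran from 36.1 over a median of 51.6 to 61.2 in active neurons, and from 61.6 over 78.4 to 110.25 in silent neurons. The ranges did not overlap, and cslow was lower in active neurons of 10 of 10 animals (difference -32.4 ± 5.55, SE, adjusted p = 0.00998, exact sign-flip test). The recorded cell diameter was 33.4 ± 3.41 in active and 38.3 ± 1.76 in silent neurons and lower in 9 of 10 animals (adjusted p = 0.012, exact sign-flip test).

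Active neurons also needed less current, as recorded. Rheobase, the smallest current step that evokes an action potential, was 81.7 ± 38.1 in active and 167.96 ± 44.2 in silent neurons, and was lower in 10 of 10 animals (difference -86.2 ± 17.3, SE, adjusted p = 0.00998, exact sign-flip test). Its animal means began at 30, with a median of 76.04, in active neurons and ran from 116.3 over 171.7 to 248.7 in silent neurons. The ranges overlapped in part, although each animal moved the same way. The column pA_start was -131.9 ± 92.97 in active and -32.9 ± 51.1 in silent neurons (adjusted p = 0.0317, exact sign-flip test). It lay below 0 in 86.3% of active and 42.3% of silent neurons.

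The column pA_threshold equals pA_start plus Rheobase in all but 4 neurons and is therefore no independent measure. It was below 0 in 33 of 51 active neurons (64.7%) and in 9 silent neurons (5.14%). Its mean was -50.2 ± 62.5 in active and 138.3 ± 37.8 in silent neurons, with animal means from -180 to 25 in active and from 76.9 to 222.5 in silent neurons (adjusted p = 0.00998, exact sign-flip test). The ranges did not overlap. HS_Threshold, a column the table does not explain, was 125.9 ± 79.2 in active and 316.2 ± 65.4 in silent neurons of the 9 animals with values and was lower in all 9 (adjusted p = 0.012, exact sign-flip test). Its companion HS_Quotient was 1.49 ± 0.324 in active and 2.34 ± 0.471 in silent neurons, with the same adjusted p.

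Stimulation at each frequency gave higher values in active neurons. The table gives 1 value between 0 and 20 for each frequency. At 50 Hz it averaged 16.4 ± 2.41 in active and 9.77 ± 2.25 in silent neurons, with animal means from 13.5 to 20 in active and from 5.82 to 13.57 in silent neurons. The lowest active animal lay just under the highest silent one, and all 10 animals were higher in the active state (adjusted p = 0.00998, exact sign-flip test). The full value of 20 was reached at 50 Hz by 35 of 51 active neurons (68.6%) and by 38 silent neurons (21.8%).

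At 100 Hz the value was 9.58 ± 1.64 in active and 5.03 ± 1.14 in silent neurons. The animal means, 7.33 to 12.6 in active and 3.27 to 7.14 in silent neurons, did not overlap (adjusted p = 0.00998, exact sign-flip test). At 20 Hz it was 18.9 ± 1.62 in active and 15.2 ± 2.13 in silent neurons, again higher in 10 of 10 animals. The difference was smaller at the lower frequencies. At 10 Hz the values were 19.5 ± 0.997 in active and 17.2 ± 1.94 in silent neurons, at 4 Hz 19.6 ± 0.909 in active and 17.6 ± 1.87 in silent neurons, and at 2 Hz 19.9 ± 0.271 in active and 18.6 ± 1.62 in silent neurons, with adjusted p-values from 0.012 to 0.0342 in the exact sign-flip test.

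**Figure D2:**
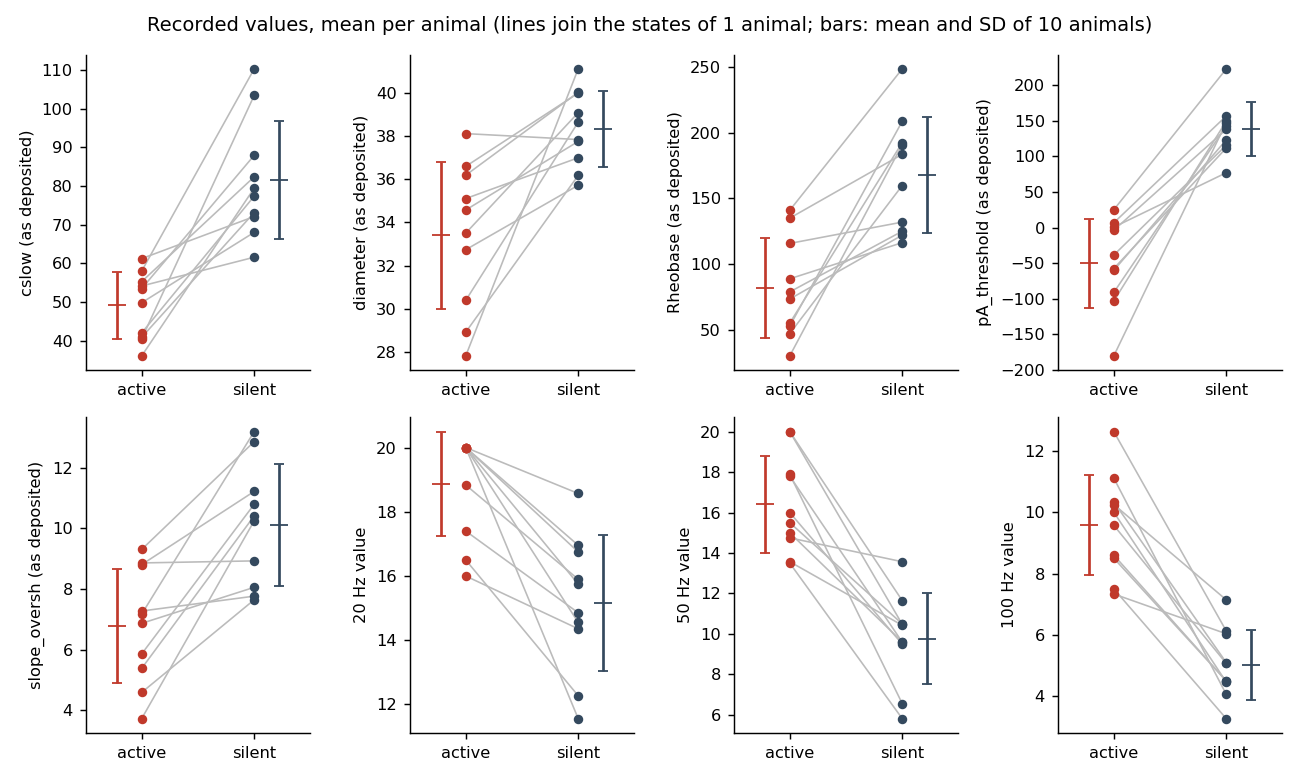
Mean per animal of 8 recorded values, with spontaneously active neurons left and silent neurons right in each panel. Lines join the states of 1 animal, and bars give the mean and SD of 10 animals. cslow, Rheobase, pA_threshold and slope_oversh were lower and the 20, 50 and 100 Hz values higher in active neurons of all 10 animals, and diameter was lower in 9.

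Several columns that describe the action potential passed as well. The recorded threshold, AP_threshhold, was -46.4 ± 3.19 in active and -43.2 ± 2.34 in silent neurons and lower in 9 of 10 animals (adjusted p = 0.0281, exact sign-flip test). slope_oversh was 6.78 ± 1.89 in active and 10.1 ± 2.00 in silent neurons and lower in 10 of 10 animals (adjusted p = 0.00998), as was slope_oversh_0.5. The value of AP_max, the recorded peak, was 43.1 ± 6.38 in active and 48.5 ± 4.399 in silent neurons (adjusted p = 0.0368, exact sign-flip test). TTP, which the table does not explain, was higher in active neurons, at 52.9 ± 12.4 against 37.3 ± 12.4 in silent neurons (adjusted p = 0.0342). Loc_APHW was -1.84 ± 4.18 in active and 2.61 ± 2.81 in silent neurons (adjusted p = 0.012), and Sinusscore_new, also unexplained, 0.243 ± 0.0775 in active and 0.412 ± 0.0916 in silent neurons (adjusted p = 0.00998, exact sign-flip test). The columns ADS_RT_ABS1 and ADS_RT_ABS75, the first and last pulse of a train, were 2.75 ± 0.253 and 2.94 ± 0.456 in active neurons, against 3.87 ± 0.430 and 4.11 ± 0.552 in silent neurons of the 7 animals with values (adjusted p = 0.0342 for both, exact sign-flip test).

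Other features of the spike did not pass. Action potential duration, APD, was 3.00 ± 0.508 in active and 3.29 ± 0.471 in silent neurons (adjusted p = 0.339, exact sign-flip test). Min_AHP, by its name the lowest point of the afterhyperpolarisation, was -73.9 ± 3.91 in active and -73.7 ± 1.78 in silent neurons, a difference of -0.149 ± 1.44 (SE), and max_slope_raw 148.8 ± 34.2 in active and 151.6 ± 12.5 in silent neurons. Input resistance was 0.299 ± 0.137 in active and 0.230 ± 0.0766 in silent neurons (adjusted p = 0.233). The resting potential was recorded for 28 of 51 active neurons and for every silent neuron, and in the 7 animals with enough values it averaged -52.5 ± 8.12 in active and -59.8 ± 1.73 in silent neurons (adjusted p = 0.133, exact sign-flip test).

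In the neurons with OSMR under 50 CPM the same direction was seen for each of the columns named above that had passed. Of 411 columns 27.3% had an unadjusted p under 0.05 and 0 (0.0%) passed after adjustment, with a smallest adjusted p of 0.131. Of the 46 columns 52.2% had an unadjusted p under 0.05, and 11 (23.9%) passed, 3 higher and 8 lower in active neurons. Rheobase was 74.7 ± 39.01 in active and 146.7 ± 42.2 in silent neurons and lower in 9 of 10 animals (adjusted p = 0.0257, exact sign-flip test). The 50 Hz value was 17.1 ± 2.54 in active and 11.7 ± 2.85 in silent neurons (adjusted p = 0.0257), and slope_oversh 6.47 ± 2.53 in active and 10.4 ± 2.08 in silent neurons, lower in 10 of 10 animals (adjusted p = 0.0225, exact sign-flip test). cslow was 47.8 ± 12.7 in active and 73.7 ± 25.9 in silent neurons, lower in 7 of 10 animals, and did not pass (adjusted p = 0.0513), and neither did diameter, at 33.1 ± 3.56 in active and 37.6 ± 3.86 in silent neurons (adjusted p = 0.0649, exact sign-flip test).

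Leaving out the neurons with TRPM8 at 50 CPM or more as well kept the direction of the difference for Rheobase (-74.6), pA_threshold (-138.6), the 50 Hz value (4.38), cslow (-18.2) and slope_oversh (-3.07), all as active minus silent over 7 animals. The difference came to -0.308 for Loc_APHW, -0.250 for AP_max and 0.0755 for AP_threshhold, against -5.51, -6.99 and -3.71 with the TRPM8 neurons included (10 animals). In that smaller set 0 of 411 columns passed, 8 columns had an unadjusted p under 0.05 in the exact sign-flip test, and the smallest p it can give with 7 animals is 0.0156. The values over 7 and over 10 animals do not rest on the same animals, since animals 1, 9 and 10 had fewer than 2 active neurons left. Over all neurons Loc_APHW was -7.20 in active and -2.46 in silent neurons of animal 1. It was -1.43 and 6.48 in animal 9, and -7.43 and 4.35 in animal 10. Whether the neurons or the animals left out made the 3 differences smaller was not tested.

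Among genes, active neurons had less NMB and less SCN11A than silent neurons. Counts were summed over the neurons of each state in each animal and compared by the quasi-likelihood test of edgeR in a model that holds each animal as a block. Of 17624 genes tested, 2 (0.0113%) had a Benjamini-Hochberg adjusted p under 0.05, both lower in active neurons, and 1299 (7.37%) had an unadjusted p under 0.05, of which 357 (2.03%) had a positive and 942 (5.34%) a negative fold change. Over all genes the log2 fold change had a median of -0.15. With 0 genes higher in active neurons under edgeR, DESeq2 on the same sums called 1.16% of genes, 37 (0.21%) higher and 0.953% lower.

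NMB encodes neuromedin B, a bombesin-like peptide made by sensory neurons. In sums of active neurons it ran from 7.14 over a median of 8.37 to 10.61 log2 CPM, against 9.66, 10.39 and 11.45 log2 CPM in silent neurons. The ranges overlapped, but every animal was lower in the active state, by a fitted 3.31-fold (log2 fold change -1.73 ± 0.23, SE, adjusted p = 0.0162, edgeR). Animal 4 had the smallest gap, at 10.61 log2 CPM in active and 10.71 in silent neurons, and animals 7 and 10 the widest.

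SCN11A encodes the sodium channel Nav1.9, which gives nociceptors a persistent current near the resting potential. Its level in active neurons ran from 5.29 over a median of 6.87 to 7.49 log2 CPM, against 7.22, 8.01 and 9.17 log2 CPM in silent neurons. It was lower in active neurons of 10 of 10 animals, by a fitted 2.83-fold (log2 fold change -1.50 ± 0.21, SE, adjusted p = 0.0162, edgeR), with a small overlap of the ranges. In such sums, fewer neurons with a gene and less of its RNA per neuron cannot be told apart. In single neurons SCN11A had a median of 41.9 CPM in active and 105.7 CPM in silent neurons and reached 50 CPM in 49.02% of active and 63.4% of silent neurons. Both calls depended on single animals: neither gene passed without animal 1, 2, 5 or 10, and SCN11A did not pass without animal 6 (adjusted p = 0.0939, edgeR). The log2 fold changes with 1 animal left out stayed between -1.90 and -1.62 for NMB and between -1.62 and -1.39 for SCN11A. In neurons of 1 day in culture alone only 7 animals had at least 2 neurons of both states. There edgeR called 10 genes (0.0614%), 1 higher and 9 lower in active neurons, with log2 fold changes of -2.31 ± 0.26 for NMB and -1.44 ± 0.20 for SCN11A (adjusted p = 0.00691 and 0.0146, edgeR).

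The next genes lower in active neurons did not pass the threshold in the edgeR test over all neurons. They were taken by the smallest unadjusted p among genes of a mean over 4 log2 CPM that moved one way in all but at most 1 animal. IL31RA, a receptor subunit that pairs with OSMR to bind interleukin 31, averaged 4.32 ± 2.87 log2 CPM in active and 7.97 ± 0.74 in silent neurons (adjusted p = 0.105, edgeR) and was lower in 10 of 10 animals. OSMR itself averaged 2.56 ± 3.34 log2 CPM in active and 6.81 ± 0.73 in silent neurons (adjusted p = 0.188, edgeR). It had no count in 2 of the 10 active sums. JAK1, the kinase bound to these receptors, averaged 7.91 ± 0.68 log2 CPM in active and 9.08 ± 0.59 in silent neurons (adjusted p = 0.180, edgeR).

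FSTL1, a secreted glycoprotein, had a log2 fold change of -0.65 ± 0.12 and NSF, the ATPase that takes SNARE complexes apart, one of -0.72 ± 0.14. PCSK2, a convertase that cuts peptide precursors, had one of -2.33 ± 0.49 and was the only one of the 17624 genes tested (0.00567%) whose sums did not overlap between the states, at 0.03 to 5.12 log2 CPM in active and 5.22 to 6.99 in silent neurons. ETV1, a transcription factor (-3.24 ± 0.69), DIRAS3, a small GTPase of the Ras family (-2.41 ± 0.50), SLC66A3 (-1.93 ± 0.40) and CHODL, a C-type lectin (-1.33 ± 0.29), make up the rest of the 12 genes. Adjusted p-values of the 10 genes past NMB and SCN11A ran from 0.105 to 0.198 (edgeR). Other fits differed on the 12, which had been picked by edgeR from the same counts, so calls of them by other fits are no independent support. DESeq2 called all 12, where it called 1.16% of all genes. Without the expression filter edgeR called 11 (0.113% of all genes), with culture day as a covariate 9 (0.136%) and in neurons of 1 day in culture 3 (0.0614%). By limma 0 were called. In neurons with OSMR under 50 CPM 10 of the 12 kept their sign, and the share of all genes that did so was not counted. These neurons are part of the same neurons and were chosen by OSMR, 1 of the 12. JAK1 had a log2 fold change of 0.19 ± 0.20 there, SCN11A 0.02 ± 0.24, FSTL1 -0.06 ± 0.16 and NMB -0.29 ± 0.30. OSMR had -0.40 ± 0.80, CHODL -0.61 ± 0.73, SLC66A3 -0.65 ± 0.37, PCSK2 -0.72 ± 0.63 and DIRAS3 -0.85 ± 0.56. NSF had -0.44 ± 0.15, IL31RA -1.58 ± 0.92 and ETV1 -1.68 ± 0.62.

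Over all neurons edgeR called no gene higher in active neurons, and the 12 that the same rule gave had adjusted p-values from 0.226 to 0.456 (edgeR). DESeq2 called 10 of these 12, where it called 0.21% of all genes higher. Since the 12 had been picked from the same sums, this is no independent support. ID2, an inhibitor of basic helix-loop-helix factors, averaged 5.71 ± 0.58 log2 CPM in active and 4.58 ± 0.64 in silent neurons and was higher in 9 of 10 animals. TSPAN6, a tetraspanin, averaged 4.76 ± 0.63 in active and 3.62 ± 0.31 in silent neurons, and APH1A, a gamma-secretase subunit, 6.21 ± 0.79 in active and 5.43 ± 0.70 in silent neurons. Both were higher in 10 of 10 animals. The adhesion molecules CNTN4 and LSAMP had log2 fold changes of 1.57 ± 0.43 and 0.75 ± 0.19, the homeobox gene HOXB7 1.18 ± 0.32 and the cyclin gene CCND2 0.65 ± 0.17. BMS1, HNRNPA1, MGAT1, LAMTOR3 and OTUD7B had log2 fold changes between 0.53 and 0.88. All 12 had the same sign in neurons with OSMR under 50 CPM, which are part of the same neurons and no independent sample. The share of all genes that kept their sign was not counted.

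**Figure D3:**
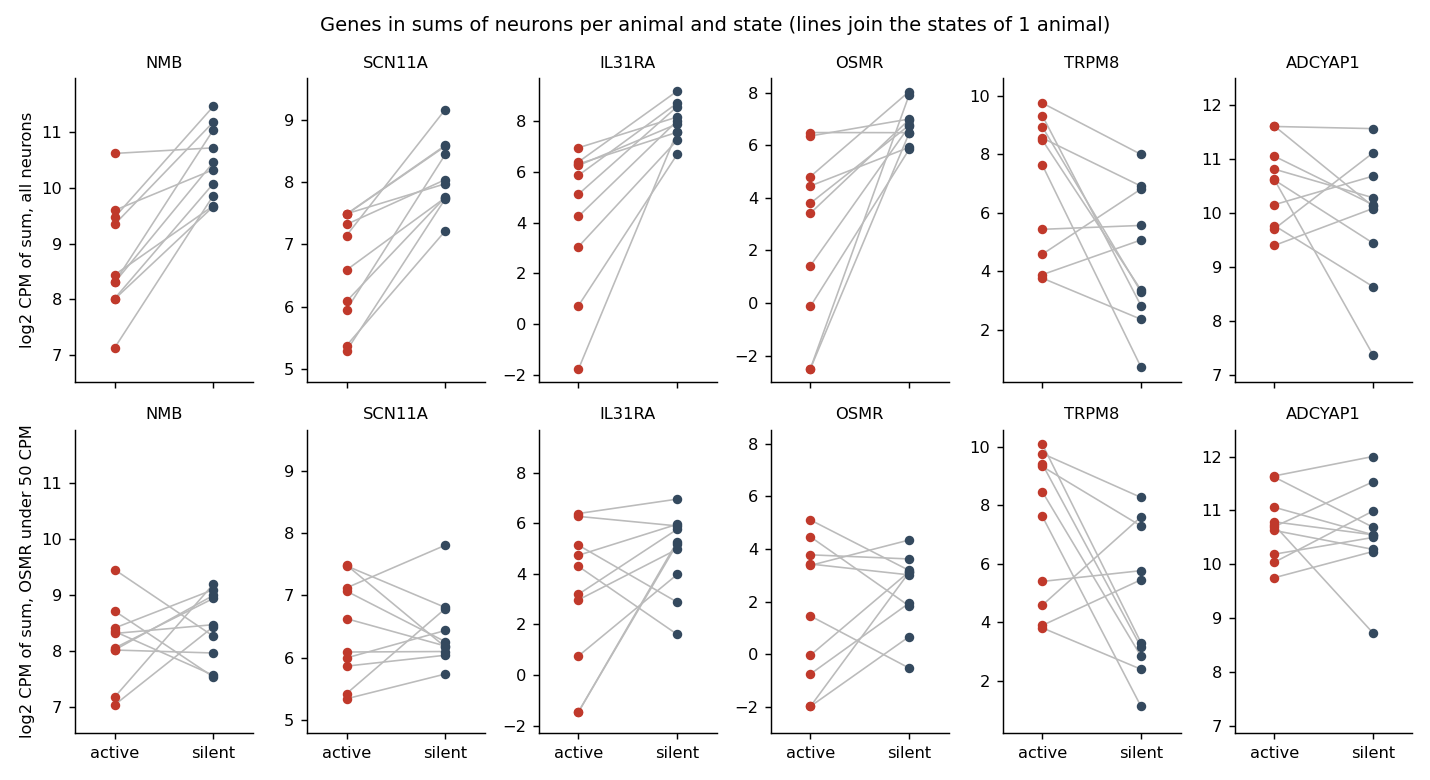
log2 CPM of 6 genes in sums of neurons per animal, spontaneously active left and silent right, in all neurons (upper row) and in neurons with OSMR under 50 CPM (lower row). Lines join the states of 1 animal. NMB, SCN11A and IL31RA were lower in active neurons of 10 of 10 animals in the upper row, and NMB and SCN11A lower in 6 of 10 in the lower row.

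Channel genes of spike generation and sensory transduction were looked at as a list of 18, of which 17 had an identifier and 12 were expressed enough to be tested. SCN11A was the only one called by edgeR, where 0.0113% of all genes passed, and DESeq2, which called 1.16% of all genes, called SCN11A, SCN10A and KCNA2. SCN10A, the gene of Nav1.8, averaged 4.93 ± 0.80 log2 CPM in active and 6.07 ± 0.57 in silent neurons (adjusted p = 0.363, edgeR), and SCN9A, the gene of Nav1.7, 7.14 ± 0.60 in active and 7.61 ± 0.44 in silent neurons (adjusted p = 0.610, edgeR), with a log2 fold change of -0.46 ± 0.18 that turned to 0.057 with limma on mean log2 CPM. SCN1A and SCN8A, sodium channel genes of fast-conducting neurons, had positive log2 fold changes of 0.66 ± 0.68 and 0.55 ± 0.58, within the spread between animals.

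Potassium channel genes of the list varied widely between animals. KCNA1 and KCNA2, which encode Kv1 channels, had log2 fold changes of -1.80 ± 0.83 and -2.32 ± 1.03 (adjusted p = 0.675 and 0.673, edgeR), with no counts in 5 and 4 of the 20 sums. KCNQ5, which encodes an M-current channel subunit, had a log2 fold change of -0.17 ± 0.42. The heat and capsaicin channel gene TRPV1 averaged 4.64 ± 2.56 log2 CPM in active and 6.36 ± 0.85 in silent neurons, and the irritant channel gene TRPA1 4.44 ± 1.98 in active and 6.13 ± 1.06 in silent neurons (adjusted p = 0.674 and 0.605, edgeR). ANO1, a calcium-activated chloride channel gene, had a log2 fold change of 0.53 ± 0.97. For KCNQ5 and ANO1 the sign changed when 1 animal was left out.

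**Figure D4:**
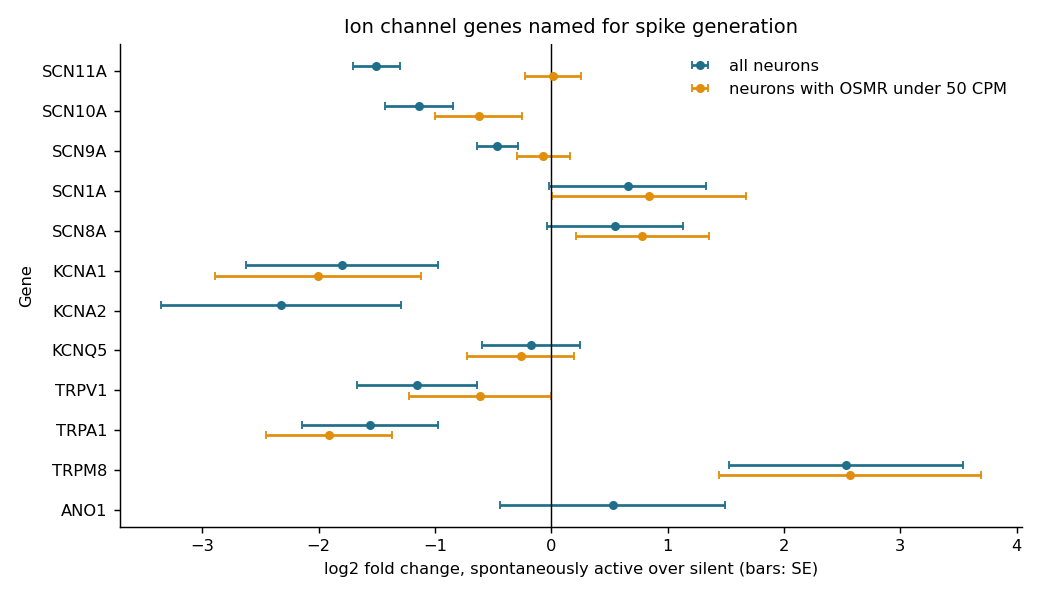
log2 fold change, spontaneously active over silent, of the tested genes of spike generation, in all neurons and in neurons with OSMR under 50 CPM (bars: SE). SCN11A had -1.50 in all neurons and 0.02 in neurons with OSMR under 50 CPM, while TRPM8 had 2.53 and 2.57.

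In neurons with OSMR under 50 CPM, 0 of 14801 genes (0.0%) passed under edgeR, where the smallest adjusted p was 0.842. Of these genes 818 (5.53%) had an unadjusted p under 0.05, 245 (1.66%) higher and 573 (3.87%) lower in active neurons, and DESeq2 called 15 (0.101%), 2 (0.0135%) higher and 13 (0.0878%) lower. SCN11A averaged 6.45 ± 0.81 log2 CPM in active and 6.43 ± 0.58 in silent neurons, a log2 fold change of 0.02 ± 0.24. NMB averaged 8.15 ± 0.70 log2 CPM in active and 8.44 ± 0.61 in silent neurons, a log2 fold change of -0.29 ± 0.30. Whether these differ from the values over all neurons was not tested, since the 160 neurons are part of all neurons. Leaving out the neurons with TRPM8 at 50 CPM or more as well gave log2 fold changes of 0.43 ± 0.25 for SCN11A and -0.47 ± 0.32 for NMB. Neither passed (adjusted p = 0.965 for both, edgeR), and active sums came from 7 animals there.

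The neurons with OSMR at 50 CPM or more had higher medians of both genes than the rest. Among them SCN11A had a median of 122.8 CPM in the 8 active and 700.4 CPM in the 58 silent neurons, and NMB 2745 CPM in active and 3713 CPM in silent neurons. Under 50 CPM of OSMR the median of SCN11A was 41.9 CPM in active and 48.2 CPM in silent neurons, and that of NMB 203.6 CPM in active and 271.8 CPM in silent neurons. The 8 active neurons with OSMR at 50 CPM or more came from 4 animals and were not tested. Values of other genes in these 8 and in the 58 silent neurons are given as a description only. OSMR had a median of 130.2 CPM in these active and 312.2 CPM in these silent neurons, and IL31RA 170.8 and 784.2 CPM. TRPM8 reached 50 CPM in 25% (2 neurons) and 5.17% (3 neurons) of them, and ADCYAP1 in 37.5% (3 neurons) and 17.2% (10 neurons).

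Genes named for the neurons with OSMR under 50 CPM all had an adjusted p of 0.842 (edgeR) and are given by their values only. BMP4, a growth factor of the TGF-beta family, averaged 4.05 ± 2.52 log2 CPM in active and 5.95 ± 1.09 in silent neurons. GFRA3, the receptor for artemin, averaged 4.79 ± 1.68 log2 CPM in active and 6.43 ± 1.01 in silent neurons, and the adhesion gene CADM1 6.71 ± 0.60 in active and 7.22 ± 0.37 in silent neurons. These 3 were lower in 9 of 10 animals, and PBLD, at -0.74 ± 0.24 on the log2 scale, in 10 of 10. NSF, MED1, PPM1G, TMEFF1, TADA3, RNF146, KIF1C and CCDC112 had log2 fold changes between -1.11 and -0.44.

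On the higher side, DDX39B, an RNA helicase, RSL1D1, a nucleolar protein gene, and LRP12, a receptor of the LDL receptor family, were higher in 10 of 10 animals. DDX39B averaged 7.05 ± 0.44 log2 CPM in active and 6.41 ± 0.41 in silent neurons. NOP56, which helps to modify ribosomal RNA, had a log2 fold change of 0.63 ± 0.17, PRPF4, a splicing factor, 0.83 ± 0.25, and PMPCB, a mitochondrial processing peptidase, 0.57 ± 0.14. TGFBR1, a type I receptor of the TGF-beta family, had 0.84 ± 0.26. PISD and CLSTN1 had 0.87 ± 0.25 and 0.81 ± 0.26, and CCND2, CNTN4 and LAMTOR3 appeared here as well as in all neurons.

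Shares of neurons with single marker genes are given beside these results, and apart from the repeats without OSMR and TRPM8 neurons the part of such markers in the gene and recording differences was not tested. TRPM8, the cold-gated channel, reached 50 CPM in 18 of 51 active neurons (35.3%) and in 16 silent neurons (9.14%). Seen from the other side, 18 of the 34 TRPM8 neurons were spontaneously active (52.9%), a share over neurons that 1 animal weighs on: animal 10 gave 6 of the 18 and 3 of the 16 silent ones. The share per animal averaged 32.4 ± 31.5% in active and 8.59 ± 9.30% in silent neurons (SD, n = 10 animals) and was higher in active neurons of 7 animals and lower in 2, with p = 0.0391 and an adjusted p = 0.146 over 12 genes in the exact sign-flip test. In animals 5, 7 and 8 no active neuron carried TRPM8.

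In the sums TRPM8 ran from 3.77 over a median of 8.06 to 9.75 log2 CPM in active neurons, against 0.73, 4.22 and 7.995 log2 CPM in silent neurons. The log2 fold change was 2.53 ± 1.01 (adjusted p = 0.626, edgeR) and higher in 7 of 10 animals. Other genes of cold-sensing neurons varied widely between animals, with log2 fold changes of 2.29 ± 1.20 for PLCD4, 1.09 ± 0.94 for FOXP2, 0.19 ± 0.48 for PCP4 and -1.10 ± 0.72 for CDH8. The 5 tested markers had a median log2 fold change of 1.09, against -0.15 over all genes, and 0 passed.

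Markers of the OSMR type did not all lean one way as shares of neurons, and 0 of the 4 measured this way passed. The share of neurons with OSMR at 50 CPM or more averaged 13.1 ± 21.4% in active and 34.4 ± 18.4% in silent neurons (p = 0.0488, adjusted p = 0.146, exact sign-flip test), and that with IL31RA 26.95 ± 31.3% in active and 48.6 ± 19.1% in silent neurons (p = 0.0195, adjusted p = 0.146). SST was at that level in 46.6 ± 34.6% of active and 49.2 ± 19.95% of silent neurons and NPPB in 88.1 ± 11.7% of active and 83.999 ± 12.1% of silent neurons (adjusted p = 0.839 and 0.797, exact sign-flip test). The shares with OSMR and IL31RA depended on the limit: both passed at 100 CPM (adjusted p = 0.0234 for both, exact sign-flip test), and neither passed at 20 CPM (p = 0.109 and 0.176, adjusted p = 0.263 and 0.331, exact sign-flip test). In the sums edgeR called 0 of the 7 tested markers of this type and DESeq2 called OSMR, IL31RA, JAK1 and CYSLTR2, all lower. By edgeR 5 had an unadjusted p under 0.05, all lower, where 5.34% of all genes were lower at that level, and their median log2 fold change was -1.41. In neurons with OSMR under 50 CPM the median of the 6 tested markers was -0.23, against -0.13 over all genes, and 0 had an unadjusted p under 0.05. These neurons were chosen by their OSMR level and OSMR is 1 of the 6, so the smaller difference is in part set by the choice.

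ADCYAP1, the gene of the peptide PACAP in peptidergic nociceptors, reached 50 CPM in 86.6 ± 19.03% of active and 63.03 ± 18.3% of silent neurons per animal (p = 0.0332, adjusted p = 0.146, exact sign-flip test). Among single neurons with OSMR under 50 CPM it reached that level in 90.7% of active and 87.2% of silent neurons. In the sums its log2 fold change was 0.57 ± 0.34 over all neurons (adjusted p = 0.737, edgeR) and 0.09 ± 0.24 with OSMR under 50 CPM. Whether the share with ADCYAP1 differs apart from that with OSMR was not tested. Neurons with ADCYAP1 at 50 CPM or more and neither OSMR nor TRPM8 at that level had 26 active neurons (22.4%), beside 22.57% over all neurons, and those with none of the 3 genes had 1 active among 15. For SST, NPPB, TAC1, TRPA1, TRPV1, PIEZO2 and KIT the adjusted p-values lay between 0.605 and 0.924 in the exact sign-flip test. Of the 12 genes 0 passed, and 4 had an unadjusted p under 0.05.

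**Figure D5:**
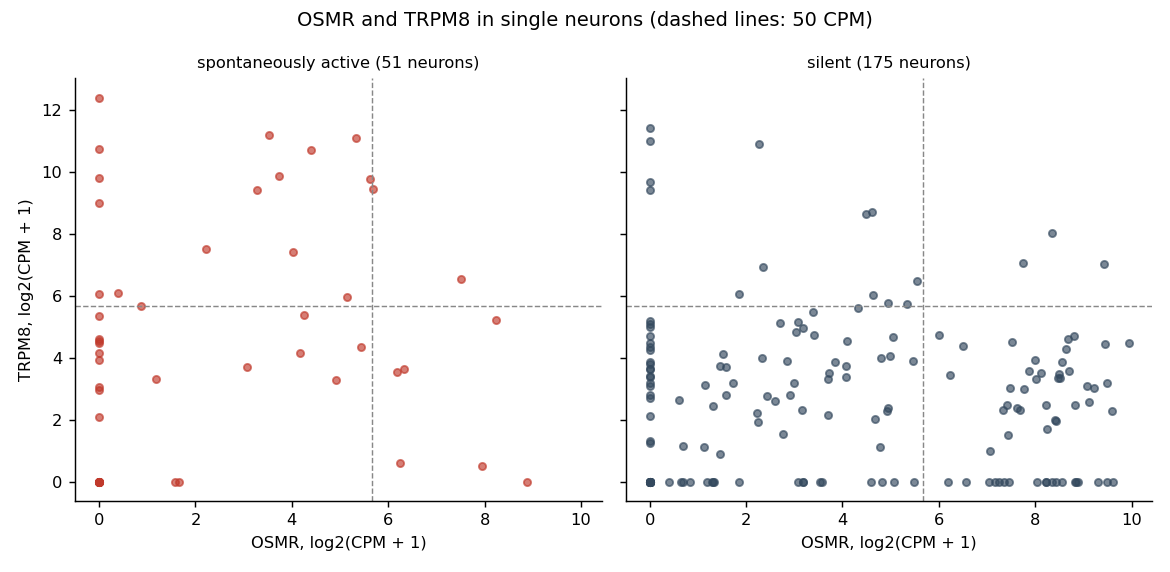
OSMR and TRPM8 levels in single neurons as log2(CPM + 1), spontaneously active left and silent right, with dashed lines at 50 CPM. TRPM8 lay at 50 CPM or more in 35.3% of active and 9.14% of silent neurons, and OSMR in 15.7% of active and 33.1% of silent neurons.

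Further gene groups were described by their counts. Over all 26 lists 362 genes were tested in all neurons, edgeR called 2 and DESeq2 20, all lower, and by edgeR 6 were higher and 50 lower at an unadjusted p under 0.05, against 2.03% and 5.34% of all genes. Of 25 tested voltage-gated potassium channel genes and auxiliary subunits 6 were lower at the unadjusted level, edgeR called 0 and DESeq2 3, and the median log2 fold change was -0.51, among them DPP10 (-1.996 ± 0.62) and KCNIP4 (-0.52 ± 0.16), partners of Kv4 channels. Of 12 tested opioid and other inhibitory receptor genes 4 were lower at that level, among them NPY2R (-3.65 ± 0.60), a neuropeptide Y receptor, and GABBR2 (-1.19 ± 0.37), a subunit of the GABA-B receptor, both in 10 of 10 animals.

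Of 24 tested TRP, acid-sensing and mechanosensitive channel genes 1 was higher and 8 were lower at the unadjusted level of edgeR, where 2.03% of all genes were higher and 5.34% lower, led by TMC3 (-3.31 ± 0.73) and TRPC6 (-3.32 ± 0.95). Of 24 tested ligand-gated channel genes 4 were lower, led by the GABA receptor subunit gene GABRA5 (-2.59 ± 0.85). Among 37 tested receptors for inflammatory mediators 2 were higher and 7 lower, including CYSLTR2 (-3.02 ± 0.67), a leukotriene receptor gene, and IL6ST (0.77 ± 0.30), which encodes the shared subunit gp130. In neurons with OSMR under 50 CPM 323 listed genes were tested, edgeR called 0 and DESeq2 1, and 5 were higher and 8 lower at the unadjusted level, against 1.66% and 3.87% of all genes there. At that level stood 0 of 9 opioid and other inhibitory receptor genes, 0 of 21 ligand-gated channel genes and 0 of 30 receptors for inflammatory mediators. Of 21 voltage-gated potassium channel genes 1 was lower, and of 19 TRP, acid-sensing and mechanosensitive channel genes 1 was higher and 2 were lower. CYSLTR2 had a log2 fold change of -0.24 ± 0.57 there.

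Genes that respond to activity or injury were described too. Of 20 tested activity-dependent early genes 0 passed under edgeR and 0 had an unadjusted p under 0.05. Over all genes these shares were 0.0113% and 7.37%, so with 20 genes a count of 0 lies near them and is not read as a result. The median log2 fold change was -0.17, against -0.15 over all genes, and EGR1 averaged 6.45 log2 CPM in active and 5.77 in silent neurons (0.67 ± 0.43). Of 23 tested genes of axotomy and regeneration 0 were called by edgeR or DESeq2, and the median was 0.01. At the unadjusted level of edgeR 1 was higher, as were 2.03% of all genes. ATF3, a marker of injured neurons, averaged 6.69 log2 CPM in active and 7.30 in silent neurons (-0.48 ± 0.38), and GAP43, a growth cone gene, 10.91 in active and 10.59 in silent neurons (0.32 ± 0.16).

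Markers of other cell types were present in neurons of both states. The mean log2(CPM + 1) over macrophage markers was 1.70 ± 1.11 in active neurons, with animals from 0.637 to 4.12, and 1.70 ± 0.428 in silent neurons, with animals from 1.34 to 2.70. The mean over satellite glia markers was 2.67 ± 0.863 in active and 2.48 ± 0.651 in silent neurons, and that over Schwann cell markers 3.38 ± 0.574 in active and 3.34 ± 0.454 in silent neurons (SD, n = 10 animals). In the sums 2 of 12 tested macrophage markers were lower at an unadjusted p under 0.05 by edgeR, as were 5.34% of all genes, 0 were called by edgeR or DESeq2, and their median log2 fold change was -0.80, against -0.15 over all genes. Without the 18 neurons of highest macrophage score NMB and SCN11A were called as well (adjusted p = 0.0348 and 0.0139, edgeR), and likewise without the 30 neurons of fewest genes (adjusted p = 0.0343 for both).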

How the data were processed

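The deposited gene table holds estimated counts, not scaled to library size, for 30420 genes. Of its values above 0, 52.1% were not whole. The submitters' processing notes name bcl2fastq 2.20. How reads were aligned and counted, and with which build, is not given in the sources used here. Identifiers were paired with symbols for 14867 genes. The deposited cell table holds other values with no units, and 43 of its 269 lines belong to no sample used here. Genes that overlap on opposite strands cannot be told apart.

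Estimated counts were summed per animal and state (at least 2 neurons), rounded, and tested with edgeR 4.0.16 under R 4.3.3 (TMM, filterByExpr, quasi-likelihood test, animal as block, Benjamini-Hochberg over all genes, threshold 0.05). Log2 CPM of sums uses a prior count of 2. The animal pairs the states by design, since both come from the same pig. DESeq2 1.42.0 and limma 3.58.1 were alternatives. Recorded columns, shares of neurons and library measures were averaged per animal (medians for library measures) and tested with exact sign-flip tests over animals in Python 3.11.15 (numpy 2.4.6). The scripts were tested on simulated data.

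From each gene comparison 12 genes in each direction were named: those past the threshold, then those of smallest unadjusted p, with a mean over 4 log2 CPM and no more than 1 animal against the direction. Members of the lists past the threshold and 18 channel genes of spike generation were named too. Results of some other listed genes are not reported here. Other list members, chosen after their values were seen, are examples only. The states, the 26 gene lists and the tests were chosen with earlier results of these data known.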

Additional observations from a re-analysis of the deposited data

Results flagged for a closer look

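In 241 groups of 4 to 10 animals, 15 values stood apart from the other animals of their group by Dixon's ratio at its 95% critical value. Chance alone flags about 1 in 20 independent groups. These groups are not independent, since the neurons with OSMR under 50 CPM are part of all neurons. Animal 1 accounts for 8 of the 15 values, 7 in genes and 1 in a recorded column. It gave only 2 active neurons, both with OSMR under 50 CPM, so its TRPV1 was flagged for the same sum in both sets. SCN9A in its silent neurons was also flagged in both sets, which share neurons. In its active sum TRPV1 lay at -2.50 log2 CPM, that is with no count, and at -1.99 in the neurons with OSMR under 50 CPM, and TMEFF1 at 0.172 log2 CPM among those with OSMR under 50 CPM, against 4.33 to 6.44 in the other animals. In its silent sum CHODL lay at 9.13 and SCN9A at 8.64 log2 CPM, and among neurons with OSMR under 50 CPM SCN9A at 8.43 and SCN11A at 7.81, the last against 5.74 to 6.81 in the other animals.

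BMS1 was low in active neurons of animal 3, at 4.23 log2 CPM. In neurons with OSMR under 50 CPM, CLSTN1 was high in active neurons of animal 4, at 6.81 log2 CPM, and in silent neurons LRP12 was low in animal 8, at 1.85. Among the recordings, the 2 Hz value of active neurons was 19.14 in animal 4 and 20 in every other animal. In neurons with OSMR under 50 CPM the 10 Hz value of active neurons was 19.2 in animal 10 and 20 in every other animal, the 20 Hz value was 16.5 in animal 1, pA_threshold of silent neurons was 173.3 in animal 8, and AHP_Tau of active neurons was 1403 in animal 5, against 16.3 to 53.5 elsewhere.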

How the results depend on the processing

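In all neurons edgeR called 0.0113% of genes (2 genes), and also 2 genes with DESeq2's size factors, with at least 1 neuron per sum, without the 18 neurons of highest macrophage score and without the 30 of fewest genes. DESeq2 called 1.16%, edgeR without the expression filter 0.113% (34 genes), with mean culture day as a covariate 0.136% (24) and on neurons of 1 day in culture 0.0614% (10), while 0 were called by limma on mean log2 CPM, with at least 3 neurons per sum and without the replicate block. Leaving out 1 animal gave 0% to 0.0178% (0 to 3 genes), with 0 without animal 1, 2, 5 or 10 and 1 without animal 6. Without the animal as replicate block NMB and SCN11A had an adjusted p of 0.31 (edgeR). With OSMR under 50 CPM edgeR called 0, DESeq2 0.101% (15) and edgeR without the filter 0.00339% (1). Of recorded columns 0 passed as planned, 94 (all neurons) and 95 (OSMR under 50 CPM) without the replicate block, and 22 and 11 with each train given by its first and last pulse. At a carrier limit of 100 CPM 2 shares passed, OSMR and IL31RA, and at 20 CPM 0, with an unadjusted p of 0.109 and 0.176 for those genes (exact sign-flip test). The first and last pulse, the macrophage, few-genes and TRPM8 settings and the OSMR repeat of library measures were chosen after seeing the data.

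Of 2703 single values under alternatives, 2531 kept direction and side of the threshold, 4.14% newly passed, 15 no longer passed and 45 changed sign. Causes of these changes were not tested. Recorded columns were judged here by the adjustment over all of them, where 0 passed as planned. Among the named genes only NMB and SCN11A had passed. Keeping the side of the threshold was thus largely set beforehand and does not measure stability. The calls with each train given by its first and last pulse were not repeated with 1 animal left out. In all neurons SCN9A turned to 0.057 and KCNQ5 to 0.071 on the log2 scale by limma, KCNQ5 to 0.57 without the replicate block, and ANO1 to -0.19 with 3 neurons per sum. With 1 animal left out KCNQ5 ran from -0.48 to 0.052 and ANO1 from -0.014 to 0.79.

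With OSMR under 50 CPM, limma turned CADM1 to 0.0028, SCN9A to 0.60 and KCNQ5 to 0.26. Without the replicate block KCNQ5 was 0.39 and OSMR 0.33. With 3 neurons per sum SCN9A was 0.15, SCN11A -0.047 and TRPV1 0.23. SCN11A was -0.086 at 1 day, -0.042 with culture day, -0.0012 without macrophage-high and -0.090 without few-genes neurons, and SCN1A -0.52 at an OSMR limit of 20 CPM and -0.28 without macrophage-high neurons. Without TRPM8 neurons SCN1A was -2.23, SCN9A 0.22, SCN10A 0.31, TRPV1 0.39, and the differences were 0.0755 for AP_threshhold and 0.431 for Apamp, over 7 animals. SCN11A kept its sign there, at 0.43. With 1 animal left out SCN9A ran from -0.24 to 0.035, SCN11A from -0.13 to 0.19 and ADCYAP1 from -0.10 to 0.23.

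Carrier shares, active minus silent, turned to -3.61% for NPPB, -0.475% for TAC1 and -6.45% for KIT at 100 CPM, to -0.306% for TAC1 and 1.13% for PIEZO2 at 20 CPM, and to 1.31% for TRPA1 and -1.17% for KIT at 1 day. Score differences turned to -0.0501 for macrophage and 0.0420 for pan-neuronal genes by means, 0.0207 for pan-neuronal genes with OSMR under 50 CPM, and -0.0202 for fibroblast genes at 1 day. Sums of 2 neurons in animals 1 and 8 and 10 animals limit what can be told apart.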
